A study of Mus musculus with 8 samples.

Results

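The genes described here are 8 genes of neutrophils, S100a8, S100a9, Ngp, Camp, Lcn2, Ltf, Retnlg and Mpo, most of which encode proteins stored in neutrophil granules. They were taken by gene symbol from the annotated matrix of the series, and 9 of its 41174 probes carried one of these symbols, 1 for each gene and 2 for Ltf. Whole lungs of 8 untreated male C57BL/6 mice, 8 to 10 weeks old, were measured, 4 wild-type and 4 Scgb3a2-transgenic. The transgene places the mouse Scgb3a2 coding sequence, which encodes a secreted airway protein, under the human surfactant protein C promoter, so that alveolar type II cells make it beside the airway cells that normally do. All transgenic mice descend from 1 founder. Each 2-colour Agilent array carried the RNA of 1 mouse in Cy5 and a common pool of lung RNA in Cy3, so every value is a log2 ratio of that lung over the pool. The dyes were not swapped, and the pool and the dye cannot be told apart in a level against the pool.

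Neutrophils are short-lived white cells made in bone marrow, and they pack their antimicrobial proteins into granules in a fixed order as they mature. Transcripts for primary granule proteins such as myeloperoxidase are made in the earliest precursors, those for secondary granule proteins such as lactoferrin and cathelicidin in later precursors, and those for S100a8 and S100a9 persist in mature cells. The lung holds a large pool of such cells within its capillaries even when it is healthy. Lipocalin 2 and lactoferrin are also made by airway and gland epithelium, so in whole lung they are not markers of neutrophils alone. In whole lung, fewer cells of a type and less RNA per cell cannot be told apart.

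Between 32257 and 34709 probes per array were well above background in the sample channel, no spot was saturated, and 1.72% to 6.46% of spots carried an outlier flag. The airway gene Scgb1a1 and the type II cell gene Sftpc were among the brightest probes over the 8 lungs. Scgb3a2 itself had a mean log2 ratio of -0.09 in wild-type and 0.79 in transgenic mice, a difference of 0.88 (SE 0.24, unadjusted p = 0.00329 and adjusted p = 1.00 by limma). All 9 probes of the 8 genes were well above background on 8 of 8 arrays and all 8 genes were tested. On wild-type replicate 1 the Ngp spot carried an outlier flag, so Ngp has 3 wild-type values and its fit uses 7 arrays. No other value of the 8 genes is missing.

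S100a8 and S100a9 form calprotectin, the calcium- and zinc-binding complex that fills the neutrophil cytosol, and of the 8 genes these differed most from mouse to mouse. The log2 ratio of S100a8 was -2.82, -2.73, -3.55 and -0.32 in wild-type replicates 1 to 4 and 0.68, -1.82, -1.74 and -3.61 in transgenic replicates 1 to 4. For S100a9 the values were -2.45, -3.34, -3.43 and 0.32 in wild-type and 1.54, -1.44, -1.64 and -3.19 in transgenic mice. Wild-type replicate 4 and transgenic replicate 1 were the 2 high lungs for both genes, and each genotype also held lungs near the bottom of the range, so the genotypes overlapped. The highest S100a9 value was 31.4-fold above the lowest and the highest S100a8 value 19.6-fold above the lowest. The same spread is plain in the raw Cy5 signals, where S100a9 ran from 372.5 in wild-type replicate 3 to 8229.5 in transgenic replicate 1, while the pool's Cy3 signal for the same probe stayed between 2964 and 6031. The SD within genotypes was 1.87 for S100a9, the largest of the 32645 probes tested, and 1.59 for S100a8, against a median of 0.18 over all probes tested. The range depended on the background correction for the dimmer gene: without the offset of 50 it was 5.24 in place of 4.29 log2 units for S100a8 and 5.17 in place of 4.97 for S100a9.

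Retnlg encodes a resistin-like secreted protein that is abundant in circulating mouse neutrophils. Its log2 ratio was -1.87, -2.19, -2.07 and 0.26 in wild-type and 0.71, -1.40, -1.34 and -2.57 in transgenic replicates 1 to 4. The same 2 lungs stood at the top and transgenic replicate 4 at the bottom, and the range was 9.71-fold. Among the 4 wild-type mice, replicate 4 stood well away from the other 3.

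**Figure D1:**
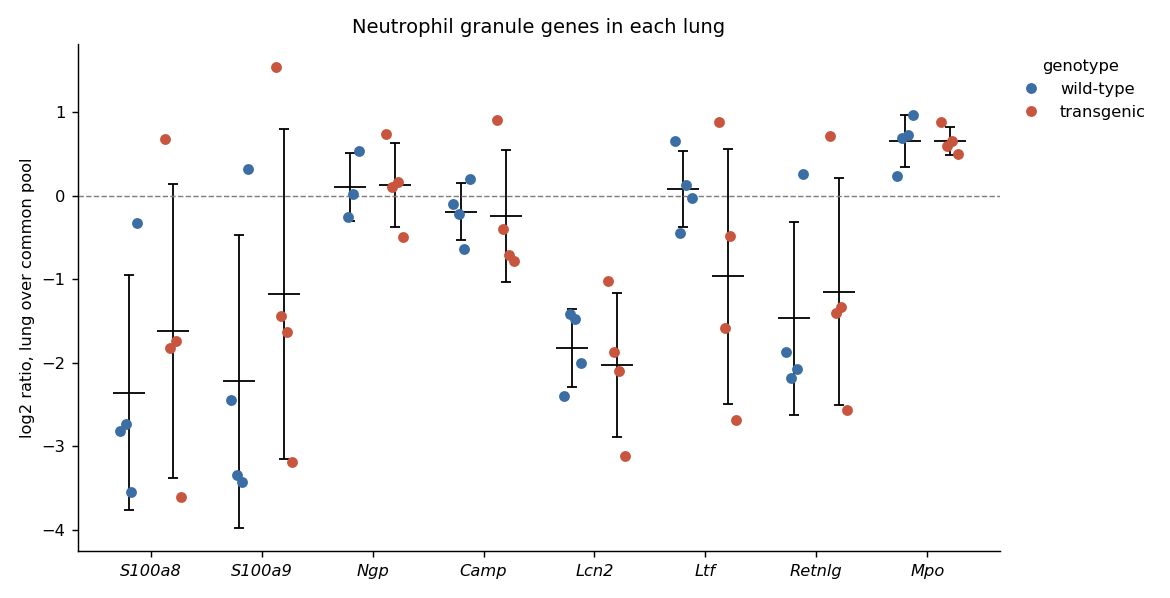
Log2 ratio of lung over the common pool (vertical axis) for each of the 8 genes (horizontal axis), 1 point per mouse, with the mean and SD of each genotype as a black bar and whiskers (n = 4 per genotype, 3 wild-type mice for Ngp) and the pool as the dashed line at 0. S100a9 spans -3.43 to 1.54 and Mpo only 0.23 to 0.97, and the points of the genotypes overlap for every gene.

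The promoters of S100a8, S100a9 and Retnlg are shown because these 3 genes varied most together. Each line gives the 250 bases before the gene's start, 5' to 3' on the gene's own strand, from RefSeq on GRCm38.p6, and capitals mark matches, on either strand, to TTNNGNAA, the letters of a C/EBP-type site, or to GAGGAA, those of a PU.1-type site. C/EBP proteins and PU.1 are transcription factors of the neutrophil lineage.
S100a8, chr3:90668821-90669070, plus strand: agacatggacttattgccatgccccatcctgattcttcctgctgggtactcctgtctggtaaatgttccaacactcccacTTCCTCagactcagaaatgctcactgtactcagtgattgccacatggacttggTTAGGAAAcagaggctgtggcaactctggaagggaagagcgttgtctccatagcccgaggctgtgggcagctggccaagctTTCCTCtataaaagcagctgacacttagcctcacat
S100a9, chr3:90695722-90695971, minus strand: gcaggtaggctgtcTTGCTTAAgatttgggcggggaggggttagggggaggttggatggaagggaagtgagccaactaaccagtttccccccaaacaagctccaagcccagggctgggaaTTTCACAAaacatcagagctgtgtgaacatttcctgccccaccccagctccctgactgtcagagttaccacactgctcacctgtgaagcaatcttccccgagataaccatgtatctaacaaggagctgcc
Retnlg, chr16:48872358-48872607, plus strand: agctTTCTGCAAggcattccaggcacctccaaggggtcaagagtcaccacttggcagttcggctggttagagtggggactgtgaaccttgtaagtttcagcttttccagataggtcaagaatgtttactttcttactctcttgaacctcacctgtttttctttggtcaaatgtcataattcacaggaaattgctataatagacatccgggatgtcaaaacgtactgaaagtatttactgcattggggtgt
S100a8 and S100a9 lie next to each other on chromosome 3, with their starts 26.6 kb apart and on opposite strands, and Retnlg lies on chromosome 16. The S100a8 window held 1 C/EBP-type match, which begins 117 bases before the start, and 2 PU.1-type matches, at 170 and 36 bases before it. S100a9 held 2 C/EBP-type matches, at 236 and 130 bases, and Retnlg 1, at 246 bases, and neither held a PU.1-type match. All 8 genes had 1 promoter entry, of which 6 held a C/EBP-type match, against 36.8% of all 32851 promoter windows of this length, and 4 a PU.1-type match, against 23.3%. Camp and Mpo were the members without a C/EBP-type match. A match describes the letters only, and binding was not measured.

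The secondary granule genes did not all vary in the same lungs or to the same extent, and Ngp and Camp varied less than S100a8, S100a9 and Retnlg. Ngp encodes neutrophilic granule protein, which is related to cystatins. In wild-type replicates 2 to 4 the log2 ratio of Ngp was -0.26, 0.02 and 0.54. In transgenic replicates 1 to 4 it was 0.74, 0.11, 0.16 and -0.50. Camp encodes the antimicrobial cathelicidin, with -0.10, -0.21, -0.64 and 0.19 in wild-type and 0.91, -0.40, -0.71 and -0.79 in transgenic mice. For both genes transgenic replicate 1 was highest, wild-type replicate 4 second and transgenic replicate 4 lowest, within a range of 2.35-fold for Ngp and 3.24-fold for Camp. With the background fitted on all spots wild-type replicate 4 was highest for Ngp, and with Agilent's processed signals, median-centred arrays or Cy5 signals alone transgenic replicate 3 was lowest for Camp. These were small ranges beside those of S100a8 and S100a9, but the SD within genotypes, 0.47 for Ngp and 0.61 for Camp, still stood at percentiles 98.3 and 99.4 of all probes tested. Camp, Ngp and Ltf all lie on chromosome 9, Camp and Ngp 570.4 kb apart and Ngp and Ltf 599.5 kb apart.

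Ltf encodes lactoferrin, an iron-binding protein, and Lcn2 encodes lipocalin 2, which takes up bacterial iron carriers. The log2 ratio of Ltf was 0.66, -0.44, 0.13 and -0.03 in wild-type and 0.89, -1.59, -0.48 and -2.69 in transgenic replicates 1 to 4. That of Lcn2 was -2.40, -1.41, -1.47 and -2.00 in wild-type and -1.03, -1.87, -2.10 and -3.12 in transgenic mice. In contrast to S100a8, S100a9 and Retnlg, wild-type replicate 4 was not a high lung for either gene: 2 of the other 3 wild-type mice lay above it for both. Transgenic replicate 1 was highest and transgenic replicate 4 lowest for Ltf as for Lcn2, with a range of 11.9-fold for Ltf and 4.27-fold for Lcn2. With arrays centred on the median or with Cy5 signals alone the highest lung was instead wild-type replicate 1 for Ltf and wild-type replicate 2 for Lcn2, and for Lcn2 it was wild-type replicate 1 with the background fitted on all spots. The second Ltf probe gave a range of 7.45-fold, followed the first across the 8 mice (r = 0.982) and differed from it by up to 0.81 in the same lung.

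Mpo encodes myeloperoxidase, the heme enzyme of primary granules. Its log2 ratio was 0.23, 0.70, 0.73 and 0.97 in wild-type and 0.89, 0.59, 0.66 and 0.50 in transgenic replicates 1 to 4. It was the steadiest of the 8 genes, with a range of 1.67-fold and an SD within genotypes of 0.25, at percentile 76.4 of all probes tested. In the Cy5 signals alone, without the pool, its range was wider, at 1.77 in place of 0.74 log2 units. By these signals Mpo was not the steadiest gene. Its SD within genotypes was 0.604, above 0.469 for Ngp and 0.519 for Lcn2, and its range also exceeded that of Camp, at 1.57.

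The level against the pool separated the genes too. Mpo was above the pool in 8 of 8 lungs and Lcn2 below it in 8 of 8, and both held in every alternative scaling of the ratios that was run. The lung with the highest Lcn2 ratio, transgenic replicate 1, reached 49.1% of the pool. S100a8 was below the pool in 7 lungs and S100a9, Retnlg and Camp in 6. The study's methods describe the pool as an even mixture of the 8 sample RNAs. The mean of the linear ratios over the 8 lungs was 0.431 for S100a8, 0.667 for S100a9, 0.563 for Retnlg and 0.286 for Lcn2, against 0.927 for Camp, 0.930 for Ltf, 1.13 for Ngp over 7 lungs and 1.60 for Mpo. The part of the dyes, the normalization or the make-up of the pool in these levels was not tested.

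The comparison of transgenic with wild-type mice asks whether Scgb3a2 over-expression moves the genes in untreated lung. No difference passed the test: 0 of 8 genes had an adjusted p under 0.05 (limma with Benjamini-Hochberg adjustment, with 0% of all 32645 probes called) and 0 of 8 had an unadjusted p under 0.05 (2.09% of all probes called). For none of the 7 genes with 8 values did the 4 and 4 mice separate without overlap (1.46% of 29494 probes did). The median difference over the 8 genes was a log2 fold change of 0.01, beside 0.00099 over all probes tested.

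The differences that were measured had wide intervals. In wild-type mice S100a9 averaged -2.22 ± 1.76 and in transgenic mice -1.18 ± 1.98 (mean ± SD, n = 4 each), a log2 fold change of 1.04 with a 95% confidence interval of -1.08 to 3.17 (limma unadjusted p = 0.304, adjusted p = 1.00). S100a8 averaged -2.36 ± 1.40 and -1.62 ± 1.76, a log2 fold change of 0.74 with an interval of -1.08 to 2.55 (limma unadjusted p = 0.391). Exact permutation of the genotypes over the 8 arrays, two-sided, gave p = 0.429 for S100a9 and p = 0.514 for S100a8, where 4 against 4 allow 0.0286 at least. For both genes the SD of each genotype was larger than the difference between the genotype means.

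Ltf had the lowest unadjusted p of the 8, with a mean of 0.08 ± 0.46 in wild-type and -0.97 ± 1.53 in transgenic mice, a log2 fold change of -1.04 and an interval of -2.34 to 0.25 (limma unadjusted p = 0.103, exact permutation p = 0.257, n = 4 per genotype). With the slide as a block the unadjusted limma p of Ltf was 0.0270, so that 1 of 8 genes was under 0.05. Without transgenic replicate 1, the lung with the highest Ltf, the log2 fold change was -1.66 (limma unadjusted p = 0.00238), and without transgenic replicate 4, the lowest, it was -0.47, with 0 genes at an adjusted p under 0.05 in both cases. For the other members the log2 fold change was 0.32 for Retnlg (interval -1.12 to 1.76), -0.21 for Lcn2 (-1.01 to 0.60), -0.06 for Camp (-0.77 to 0.66), 0.02 for Ngp (-0.57 to 0.62) and 0.001 for Mpo (-0.34 to 0.34). The interval was narrowest for Mpo and widest for S100a9.

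**Figure D2:**
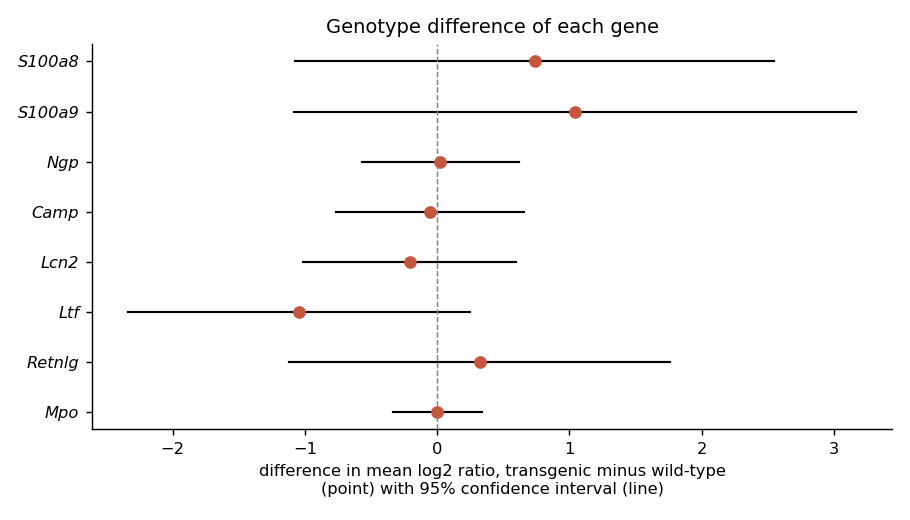
Difference in mean log2 ratio, transgenic minus wild-type (horizontal axis), for each of the 8 genes (vertical axis), with points for the estimate and lines for the 95% confidence interval from limma. Every interval crosses 0; the line for S100a9 runs from -1.08 to 3.17 and that for Mpo from -0.34 to 0.34.

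Single lungs set the size and, for some genes, the sign of these differences. Without wild-type replicate 4 the log2 fold change of S100a9 was 1.89 (limma unadjusted p = 0.0493), and without transgenic replicate 1 it was 0.14. That of S100a8 moved from 1.41 without the first of these mice to -0.03 without the second, and that of Retnlg from 0.90 to -0.30. Each of the 4 slides held 1 mouse of each genotype, so the genotypes can also be compared within a slide. For S100a9 the difference of the mice on a slide was 0.24, 3.99, 1.91 and -1.96 on slides 1 to 4, and for S100a8 it was -0.05, 3.51, 0.91 and -1.42. The 4 slides did not share 1 sign for any of the 8 genes, with 3 slides for Ngp. Scan days, with 2 mice of each genotype a day, gave a difference of 2.11 and -0.03 for S100a9 and of -1.29 and -0.80 for Ltf on days 1 and 2.

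Across the 8 lungs most of the 8 genes rose and fell together. Over the 28 pairs of genes the median Pearson r of the log2 ratios was 0.654, from 0.235 for Ltf with Mpo to 0.980 for S100a8 with S100a9, and 9 pairs had a Benjamini-Hochberg adjusted exact permutation p under 0.05 by Pearson's r and 3 by Spearman's rho. Removing the genotype means left the median at 0.694. Without the 2 mice farthest from the median of each pair's first gene, most often transgenic replicate 1 and wild-type replicate 4, the median fell to 0.177, so much of the shared variation rests on these lungs.

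S100a8, S100a9 and Retnlg kept their relation without the extreme lungs. S100a8 followed S100a9 with r = 0.980 (exact permutation p = 0.000496, adjusted p = 0.00347, n = 8 mice) and rho = 0.857 (exact permutation p = 0.0107, adjusted p = 0.0600), and among the 6 other mice r was 0.898. S100a9 with Retnlg gave r = 0.980 (exact permutation p = 0.000298) and rho = 0.881 (exact permutation p = 0.00724), with 0.899 among the 6 other mice. Ngp, the secondary granule gene closest to them, followed Retnlg with r = 0.962 and rho = 1.00 over 7 mice (exact permutation p = 0.000198 and 0.000397). Without transgenic replicates 1 and 4 this r was 0.949 over the 5 mice left, which still held wild-type replicate 4, a high lung. Ngp with S100a9 had r = 0.920 over 7 mice, but 0.680 without transgenic replicate 1 and wild-type replicate 4. Among these 4 genes rho lay between 0.821 and 1.00.

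Camp, Lcn2, Ltf and Mpo did not hold to this order. Camp with S100a8 had r = 0.833 (exact permutation p = 0.00952, adjusted p = 0.0333, n = 8 mice) and rho = 0.667 (exact permutation p = 0.0831), but r was only 0.186 without transgenic replicate 1 and wild-type replicate 4, so that relation rests on these lungs. Ltf with S100a9 had r = 0.423 (exact permutation p = 0.297, n = 8 mice) and rho = 0.214 (exact permutation p = 0.619). Ltf with Lcn2 had r = 0.653 (exact permutation p = 0.0815, n = 8 mice) and rho = 0.476 (exact permutation p = 0.243), and r was -0.277 without transgenic replicates 1 and 4. Mpo with Ngp had r = 0.844 (exact permutation p = 0.0202, adjusted p = 0.0567) and rho = 0.679 over 7 mice. Without transgenic replicates 1 and 4 this r was 0.682. Mpo with S100a9 had r = 0.596 and rho = 0.333 over 8 mice, and r was -0.149 without transgenic replicate 1 and wild-type replicate 4. Whether the correlation of one pair differs from that of another was not tested.

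**Figure D3:**
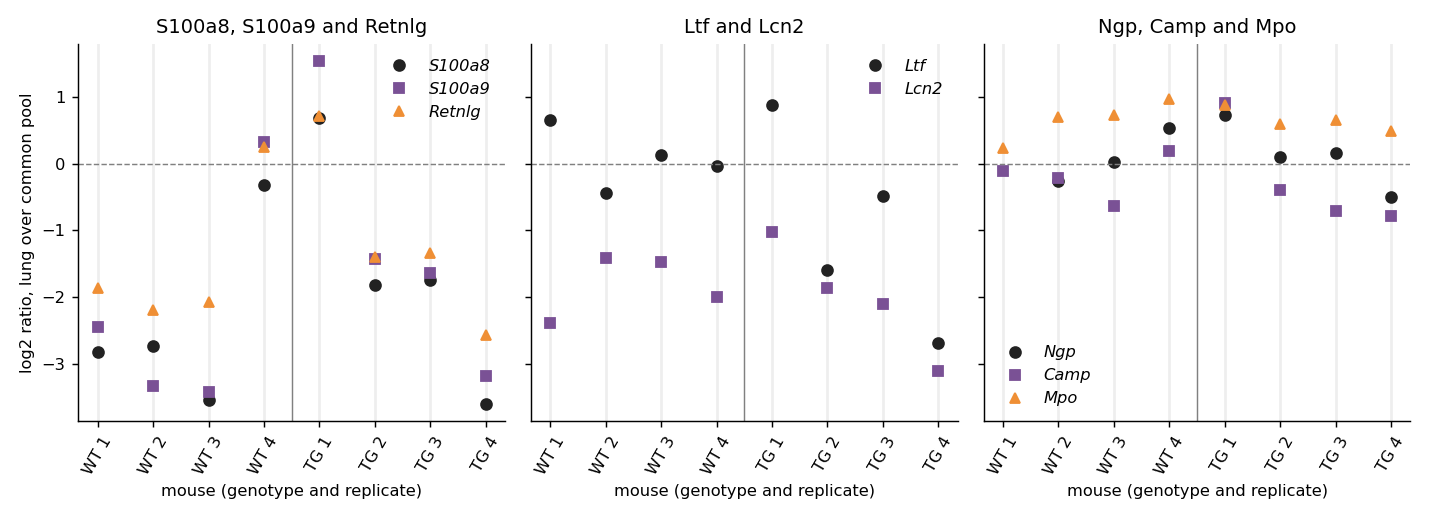
Log2 ratio of lung over the common pool (vertical axis) in each mouse (horizontal axis, WT wild-type and TG transgenic, with replicate number) for 3 sets of genes, with a marker per gene and the pool as the dashed line at 0. WT 4 and TG 1 stand apart from the other lungs in the left panel, whereas WT 4 is no high lung in the middle panel, where TG 4 is lowest.

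**Figure D4:**
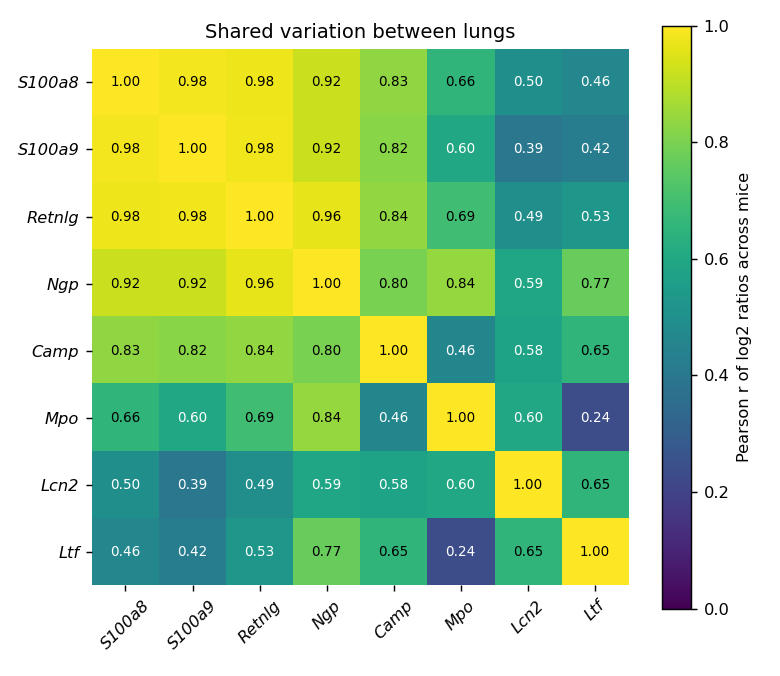
Pearson r of the log2 ratios across mice for each pair of the 8 genes (both axes, 8 mice, 7 for pairs with Ngp), with the colour scale from 0 to 1. S100a8, S100a9, Retnlg and Ngp form a block from 0.920 to 0.980, and Ltf with Mpo is lowest at 0.235.

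Other genes of neutrophils were read from 6 lists, and the granule lists among them also hold the members. Of the primary granule list 6 of 8 genes were tested, of the secondary granule list 12 of 12, of the tertiary granule and cytosol list 16 of 16, of the surface list 17 of 18, of the transcription factor list 5 of 7 and of the list of attractants and growth factors 8 of 11. By limma 0 of these had an adjusted p under 0.05, and 1, a gene of the surface list, an unadjusted p under 0.05. Of all probes tested, 2.09% had an unadjusted p under 0.05. The median log2 fold change was 0.02 for the primary, -0.02 for the secondary and 0.07 for the tertiary granule list, 0.06 for surface genes, -0.14 for transcription factors and 0.06 for attractants and growth factors. The genes with the lowest unadjusted p among the others of each list did not pass. They were the primary granule proteases Ctsc (log2 fold change -0.35) and Elane (-0.14), the adhesion protein Ceacam1 (-0.23) beside Ltf itself, the lectin receptor Clec4d (-0.26), the transcription factors of early myeloid cells Cebpa (-0.33) and Runx1 (-0.26), and the chemokines Cxcl5 (0.27) and Cxcl12 (0.29). In the tertiary granule and cytosol list they were the metal transporter gene Slc11a1 (0.23) and the stefin Stfa2l1 (0.20). Flagged spots left Ctsc, Ceacam1 and Cxcl12 with 7 arrays and Cebpa and Runx1 with 5.

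Between mice, several of these genes moved with calprotectin and Retnlg, and they were picked after their values were seen. Csf3r, the receptor for the growth factor G-CSF, was highest in wild-type replicate 4 (0.41) and transgenic replicate 1 (0.35) and between -0.78 and -0.32 in the other 6 lungs, with r = 0.962 to the mean of S100a8, S100a9 and Retnlg over 8 mice. Il1r2, a decoy receptor for interleukin 1, ran from -2.14 to -0.98 with r = 0.965, and Mmp8, neutrophil collagenase, from -2.48 to -0.79 with r = 0.933. Cd177, a surface protein of neutrophils, and Pglyrp1, a granule protein that binds bacterial walls, were far higher in transgenic replicate 1 than elsewhere, at 1.55 and 1.95 against at most -0.13 and 0.38 in the other lungs. The primary granule proteases Elane, Prtn3 and Ctsg, by contrast, stood at percentiles 55.2, 30.9 and 64.7 of the SD over all probes tested. Not all genes of these lists ran the same way: Fpr1, a receptor for bacterial peptides, had r = -0.793 to the mean of S100a8, S100a9 and Retnlg, and Chil3 and Olfm4 of the secondary granule list -0.344 and -0.341. Cxcr2, a chemokine receptor of mature neutrophils, had an SD at percentile 68.7 and r = 0.319 to the same mean. The list means ranked transgenic replicate 1 first and transgenic replicate 4 last for secondary granule, for tertiary granule and cytosol, and for surface genes. Of the tested genes, 4 of 12 in the secondary list and 3 of 16 in the tertiary list are members. The means of these lists therefore partly repeat the members' own values, whereas the surface list holds 0 members.

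Markers of other cells were read from 7 further lists, of which 0 genes had an adjusted p under 0.05 by limma. The tested genes with an unadjusted p under 0.05 were 2 of 11 in airway secretory epithelium, Bpifa1 (log2 fold change -1.53) and Sftpd (-0.47), 3 of 14 in monocytes and macrophages, Siglecf (0.28), Lyz2 (-0.76) and Fabp1 (0.45), and 1 of 11 in T, B and NK cells, Ms4a1 (0.63). In proliferation, red cells, platelets, and eosinophils, basophils and mast cells there was none, of 8 genes tested in each. The share over all probes tested was 2.09%. Among the lowest unadjusted p there were those of Cdc20 (0.33) and Tk1 (0.20) in proliferation, Hba-a1 (-0.51, 7 arrays) and Alas2 (0.35) in red cells, Treml1 (-0.23) in platelets, and Prg2 (0.14) and Tpsb2 (-0.12) in the eosinophil, basophil and mast cell list. The red cell list averaged -0.12 in wild-type replicate 4 and 0.19 in transgenic replicate 1, within the range of -0.14 to 0.75 over the 8 lungs. The platelet list was highest in the same 2 lungs as calprotectin, at 0.92 and 0.63 against 0.13 to 0.45 in the other 6, and every one of its 8 tested genes was well above background on 8 arrays. The T, B and NK cell list was highest in transgenic replicate 1 (0.59), followed by transgenic replicate 2 (0.37) and wild-type replicate 4 (0.27), and ran from -0.09 to 0.59. The monocyte and macrophage list, from -0.74 to -0.25, was low in both of these lungs, at -0.61 and -0.66. The part of other cells, or of blood left in the lung, in the values of the 8 genes was not tested.

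The airway secretory epithelium genes moved with the mean of Ltf and Lcn2 to unlike degrees. Among those with 8 values, r to that mean ran from 0.323 for Cyp2f2 to 0.983 for Scgb3a1. The list averaged 0.69, 0.29, 0.82 and 0.24 in wild-type and 0.96, -0.10, 0.35 and -0.71 in transgenic replicates 1 to 4, and all 11 tested genes were well above background on 8 arrays. In wild-type replicate 1, where the list stood at 0.69, Lcn2 was at -2.40 and lower only in transgenic replicate 4. Transgenic replicate 1 was highest and transgenic replicate 4 lowest, as for Ltf and Lcn2. Scgb3a1, a secreted airway protein related to Scgb3a2, was the gene of 25882 candidates whose pattern was most like the mean of Ltf and Lcn2, with r = 0.983 and rho = 1.00 over 8 mice and r = 0.950 without transgenic replicates 1 and 4. Its log2 ratio ran from -1.07 in transgenic replicate 4 to 1.95 in transgenic replicate 1. Reg3g, an antibacterial lectin of epithelium, had r = 0.966 and a range of 41.8-fold, from -3.84 to 1.54 in the same 2 lungs, and r = 0.765 without them. With Ltf alone r was 0.976 for Scgb3a1 and 0.968 for Reg3g, and neither was among the 10 genes most like Lcn2 alone. Both were looked for after the values of Ltf and Lcn2 were seen, and no p is given because they were chosen as the highest of all candidates.

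**Figure D5:**
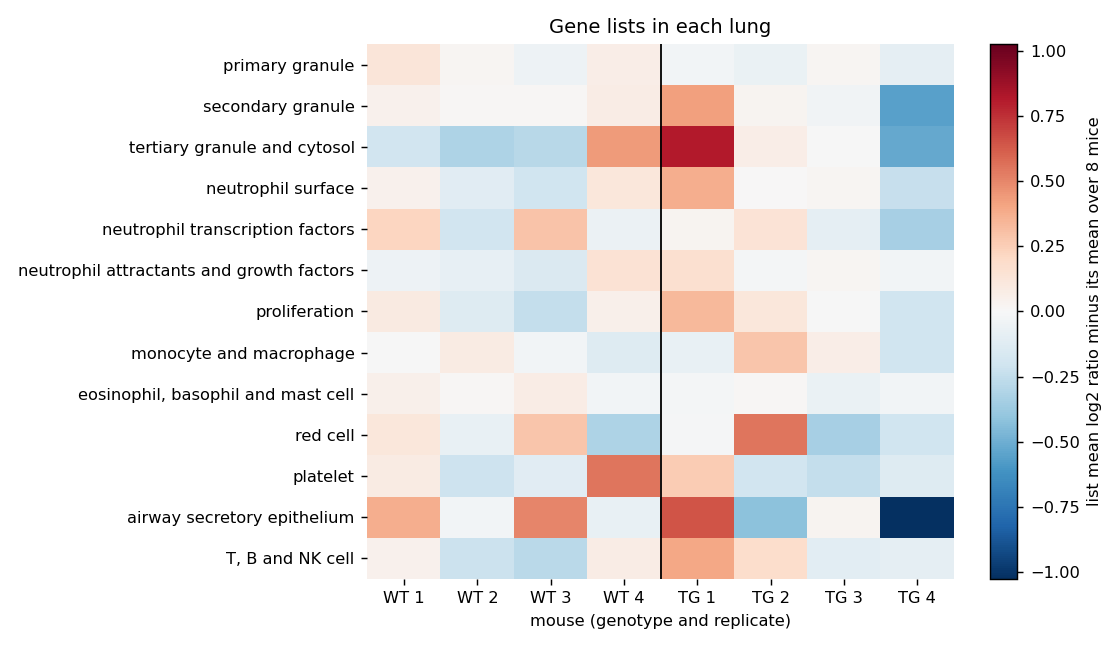
Mean log2 ratio of each gene list (rows) in each mouse (columns, WT wild-type and TG transgenic), less the list's mean over the 8 mice, with red above and blue below it on the scale at the right. Tertiary granule and cytosol genes are reddest in TG 1 and WT 4, whereas airway secretory epithelium genes are bluest in TG 4 and not raised in WT 4. The tertiary row includes the members S100a8, S100a9 and Retnlg, 3 of its 16 genes, and the secondary row 4 members of 12. Both rows thus partly repeat the members' own values.

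Among the 10 genes whose pattern over the 8 lungs was most like the mean of the 8 members were Trem2, Masp2, Eno2, Ogg1, Tgm5, Fam109a, Nudt1, Prkar2b and Gm11428, with r from 0.961 to 0.985. The mean of the members itself, without Ngp in wild-type replicate 1 where it has no value, was -1.25, -1.24, -1.29 and -0.01 in wild-type and 0.67, -0.98, -0.90 and -2.00 in transgenic replicates 1 to 4. Of these named genes 8 moved over less than 2-fold, from 1.35-fold for Fam109a to 1.62-fold for Trem2, and Gm11428 over 3.11-fold, so they did not share the size of the change. The order of the lungs was shared in part, with rho from 0.786 for Prkar2b to 0.976 for Eno2. Without the 2 lungs farthest from the median of the members' mean, r ran from 0.775 for Prkar2b to 0.965 for Fam109a.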

How the data were processed

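Lung RNA of 8 mice was measured on 8 arrays, grouped by the genotype the labels give. Per the file headers the authors extracted spot intensities with Agilent Feature Extraction 10.10.1.1, whereas the submitters' processing notes name version 11.0.1.1. Gene symbols were read from the annotated matrix, whose log2 ratios (sample over pool) the authors deposited as well. The methods name GeneSpring and a Student's t-test.

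Log2 ratios were computed from median signals and local backgrounds with limma 3.58.1 (R 4.3.3): normexp with an offset of 50 fitted on unflagged spots, loess within each array, flagged spots left out, spots of a probe averaged. Of 41174 probes 33870 had a symbol in the matrix, 933 more had one by accession in RefSeq (GRCm38.p6) and 6371 had none. A probe was tested when well above background on at least 4 arrays with at least 2 values per genotype (32645 probes). limma's moderated test was two-sided, with Benjamini-Hochberg adjustment over all probes tested. Each array is 1 mouse. The SD within genotypes pools both genotypes. The fit was checked on simulated data. Figures were drawn with Python 3.11 and matplotlib.

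The members, the 13 gene lists and the tests were chosen with earlier results of these data known. A gene is given by its brightest probe. The text names the 8 members, in each list the 2 genes with the lowest unadjusted p, the 10 genes most like the mean of the members, and genes picked afterwards, which are marked so. A few genes that this rule names are not reported here. For each of 24 alternatives the genotype difference was recomputed. For the spread and the shared variation, an offset of 0 and the removal of each mouse were added after seeing the data.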

Additional observations from a re-analysis of the deposited data

Results flagged for a closer look

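Among the 15 groups of 4 mice examined (8 genes in each genotype, without Ngp in wild-type mice), 1 held a mouse far from the other 3, and by chance about 5% of such groups would. For Retnlg in wild-type mice, replicate 4 stood at a log2 ratio of 0.26 against -1.87, -2.19 and -2.07 in replicates 1 to 3, and its gap to the nearest of them was 0.869 of the range of the group. The same mouse was the highest wild-type lung for S100a8, S100a9, Ngp, Camp and Mpo, and the Retnlg probe was well above background on 8 arrays. The cause was not tested.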

How the results depend on the processing

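No member gene reached an adjusted p under 0.05 under any of the 24 alternatives, and the unadjusted count was 1 (Ltf) in place of 0 with arrays centred on the median log2 ratio (-1.13), with array weights (-1.19) and with slides as the block (-1.04). With the replicate number as a block the count was also 1, again Ltf (-1.04), but mice of the same number correlated with r of 0.32, 0.25, -0.08 and -0.21 after removal of the genotype means, and the first 2 of these pairs also share a slide. Since 2 pairs fell below 0, the numbers were not taken to pair the mice. Mice of the same slide correlated with r of 0.30, 0.32, 0.25 and 0.08 on slides 1 to 4. The sign of 2 log2 fold changes near 0 turned: that of Ngp to -0.12 with normexp fitted on all spots, -0.0034 with median-centred arrays, -0.0226 from Cy5 signals without the pool, -0.18 with either block and -0.0546 with array weights, and that of Mpo to -0.0064 without background subtraction, -0.0348 with normexp on all spots, -0.11 with median centring and -0.0795 with array weights. That of Retnlg turned to -0.11 with array weights. Leaving out each mouse gave an unadjusted count of 0 to 2 and log2 fold changes from -0.0315 to 1.41 for S100a8, 0.14 to 1.89 for S100a9, -0.18 to 0.24 for Ngp, -0.44 to 0.12 for Camp, -0.54 to 0.16 for Lcn2, -1.66 to -0.47 for Ltf, -0.30 to 0.90 for Retnlg and -0.14 to 0.11 for Mpo, with a median from -0.24 to 0.19. The 2 genes without transgenic replicate 1 were Ltf and Camp. The median r over pairs of members was 0.488 with median-centred arrays and 0.426 from Cy5 signals without the pool, against 0.654, and 0.558 to 0.792 with each mouse left out, while the median SD between mice was 0.669 to 0.987, against 0.911. The cause of these changes was not tested. The number of arrays, 4 per genotype, limits the precision.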
